A study of Mus musculus with 10 samples.

Results

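The genes described here encode the subunits of respiratory chain complexes I, III and IV and of ATP synthase (complex V), from the nuclear and the mitochondrial genome. They were chosen by gene symbol alone: the Nduf subunits without the Ndufaf assembly factors, Uqcr genes and Cyc1, the Cox4 to Cox8 families, Atp5 genes, and the mitochondrially encoded mt-Nd, mt-Co, mt-Atp and mt-Cytb genes. Of 109 matching genes 12 were pseudogenes and were set aside, which left 97 members, 84 nuclear and 13 mitochondrially encoded, among 20009 genes with a count. RNA was sequenced from the slow-twitch soleus and the fast-twitch tibialis anterior (TA) of wild-type mice, with 3 male and 2 female libraries of each muscle and 10 libraries in all. The labels gave no strain or age and did not say whether replicates were separate animals, so p-values measure the spread between these samples, which may be technical. A soleus and a TA library of the same sex and number were taken as a pair. Soleus female 2 stood apart from the other libraries, with counts in 15070 genes against 10971 to 11858, and results are also given without it.

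The respiratory chain passes electrons from NADH and succinate to oxygen and pumps protons across the inner mitochondrial membrane, and ATP synthase uses the proton gradient to make ATP. Complexes I, III, IV and V each hold proteins of both genomes. Slow oxidative muscle fibers depend on this pathway for steady work, fast glycolytic fibers less so, and several subunits of complex IV have a form typical of heart and skeletal muscle and another found more widely.

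One member, Ndufv3, is annotated with a long and a short coding transcript whose counts differed between the muscles, and the sequences that tell these apart are given first. Ndufv3 is an accessory subunit in the part of complex I that binds NADH, and lies on chromosome 17, 31520115 to 31531331, plus strand (GRCm38, GENCODE M21). The long transcript, Ndufv3-201, has 4 exons, 1582 bases and 468 codons. Its exon 3, chr17:31527310-31528401, is 1092 bases long, all coding, and adds 364 codons without a change of frame. The short transcript, Ndufv3-202, has 3 exons, 493 bases and 104 codons, and joins the same upstream exon directly to the last exon. The 60 bases around each exon junction, from the GENCODE M21 transcripts, are shown 5′ to 3′ with the bases of exon 3 in capitals.
Ndufv3-201, exon 2 into exon 3: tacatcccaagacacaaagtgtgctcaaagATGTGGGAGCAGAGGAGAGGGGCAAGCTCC
Ndufv3-201, exon 3 into exon 4: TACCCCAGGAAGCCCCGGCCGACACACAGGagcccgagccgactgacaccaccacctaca
Ndufv3-202, exon 2 into last exon: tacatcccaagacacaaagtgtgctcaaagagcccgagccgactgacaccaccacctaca

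The long transcript held most Ndufv3 counts in soleus and the short one most in TA. Ndufv3-201 had 54, 59 and 47 counts in the soleus libraries of males 1 to 3 and 49 and 33 in those of females 1 and 2. In TA it had 11, 11 and 10 counts in the males and 14 and 3 in the females. Every soleus library lay above every TA library. This held for 7.29% of the 5115 tested genes, and the share of all transcripts of which it held was not counted. In CPM, counts scaled to a library of 1000000, this was 60.7 ± 14.2 in soleus against 11.1 ± 4.89 in TA (SD, n = 5 per muscle), a log2 fold change of soleus over TA of 2.44 (standard error of the fit, SE, 0.31, edgeR adjusted p = 0.000109 across 5089 transcripts).

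Ndufv3-202 moved the other way. It had 21, 21 and 26 counts in the soleus of the males and 15 and 25 in that of the females, against 60, 66 and 54 in male TA and 23 and 28 in female TA. In CPM, the male TA libraries (61.7 to 76.3) lay above all soleus libraries (19.8 to 32.2), and the female TA libraries (26.4 and 27.7) lay within the soleus range. TA was above soleus in female 1 (26.4 against 19.8 CPM) and below it in female 2 (27.7 against 29.6 CPM). The log2 fold change was -0.86 (SE 0.24, edgeR adjusted p = 0.0191), and it missed the threshold without soleus male 1 (-0.74), soleus male 2 (-0.79) or TA male 2 (-0.76). In TA this transcript was lower in females than in males by a log2 value of -1.34 (SE 0.25, edgeR adjusted p = 0.0395), in a comparison where 0.707% of transcripts passed. The difference of the tissue effect between the sexes did not pass for Ndufv3-202 (interaction 1.16, SE 0.37, edgeR adjusted p = 0.676).

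As a share of all Ndufv3 counts, which ran from 31 to 80 per library, the long transcript made up 72.0%, 73.8% and 64.4% in male soleus and 76.6% and 51.6% in female soleus. In TA it made up 15.3%, 14.3% and 15.4% in males and 36.8% and 9.68% in females. The lowest soleus share was above the highest TA share. The means were 67.7% ± 10.1 and 18.3% ± 10.6 (SD, n = 5 per muscle), a difference of 49.4 percentage points (2-sided exact permutation p = 0.00794, the smallest that 5 libraries against 5 allow, and 0.0159 adjusted over the gene's 4 listed transcripts). The share of the short transcript was 30.5% ± 6.59 against 80.6% ± 11.6, with the same p. As the long and short transcripts hold nearly all counts of the gene, their shares are not separate results. Ndufv3 was singled out with earlier results of these data known, which the p-values of the shares do not allow for. Without soleus female 2 the long transcript's log2 fold change was 2.55 and the difference in its share 53.4 points. With libraries kept in pairs, the exact permutation by sign flips gave p = 0.0625 for each share, the smallest that 5 pairs allow, and 0.125 adjusted. The other 2 listed transcripts, Ndufv3-203 and Ndufv3-205, had 7 and 2 counts in all. At the level of the gene Ndufv3 had 88.4 ± 12.3 CPM in soleus and 64.2 ± 25.1 in TA, a log2 fold change of 0.53 (SE 0.19, edgeR adjusted p = 0.0620) that did not pass.

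**Figure D1:**
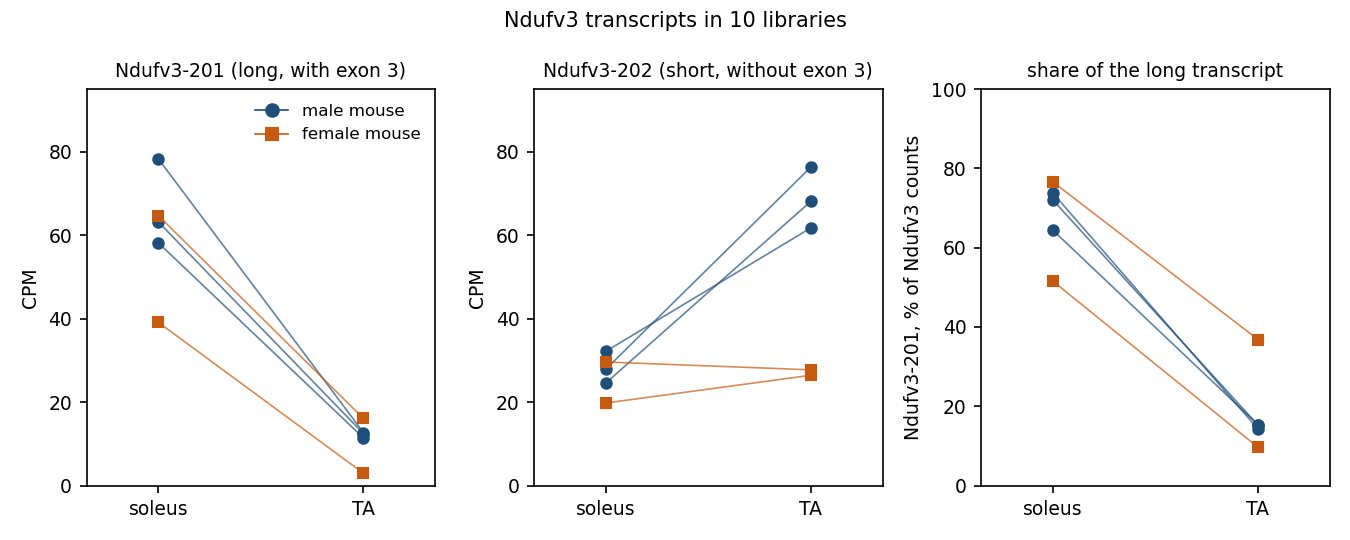
CPM of the long (left) and short (middle) Ndufv3 transcript and the long transcript's percentage of Ndufv3 counts (right) in soleus and TA. Each point is a library, lines join libraries of the same sex and number, and every soleus share (51.6% or more) lies above every TA share (36.8% or less).

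These shares are of counts, not of molecules. Ndufv3-201 has 360 31-mers (runs of 31 bases) found in no other annotated transcript, and Ndufv3-202 has 31, of which 28 span the junction printed above. How much of each transcript could be counted is not known here, and the size of the shares, and of their difference in percentage points, depends on it.

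Across the 402 annotated transcripts of the members, a count was listed for 4 of 27 transcripts that lack such a 31-mer, for 109 of 187 that have 1 to 100, and for 149 of 188 that have over 100. The last class held 1266959 counts. Single transcripts went against this order: Uqcrc1-204, with 1600 such 31-mers, had no listed count, and Ndufs8-201, with 31, had 1922 counts. The cause was not tested. The 12 nuclear members with a single annotated transcript had a median of 2322 counts over the 10 libraries, and the 72 with more had a median of 79.5. Levels of different members were not taken to be on a common scale. In all, 90 members had a count and 60 passed the filter on low counts, 48 nuclear and 12 mitochondrially encoded. Ndufs3, Ndufb1-ps, Uqcrc1, Cox4i2, Cox8c, Cox6b2 and Atp5a1 had no listed count, which is not known to be a count of 0. The other 30 members that were not tested had 1 to 59 counts over all libraries. They included Ndufa7, Ndufa10, Ndufa11, Ndufa12, Ndufb4, Ndufb10, Ndufc1, Ndufs1, Ndufs6, Ndufs7 and Ndufv1 of complex I, and Cox4i1, Cox5a, Cox6a1, Cox6b1, Cox7a2, Cox7a2l, Cox7b2, Cox7c, Ndufa4, Ndufa4l2 and mt-Co3, placed with complex IV. Of complex V they included Atp5d, Atp5g1, Atp5g2, Atp5mpl, Atp5s and a pair of genes that share the symbol Atp5o.

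**Figure D2:**
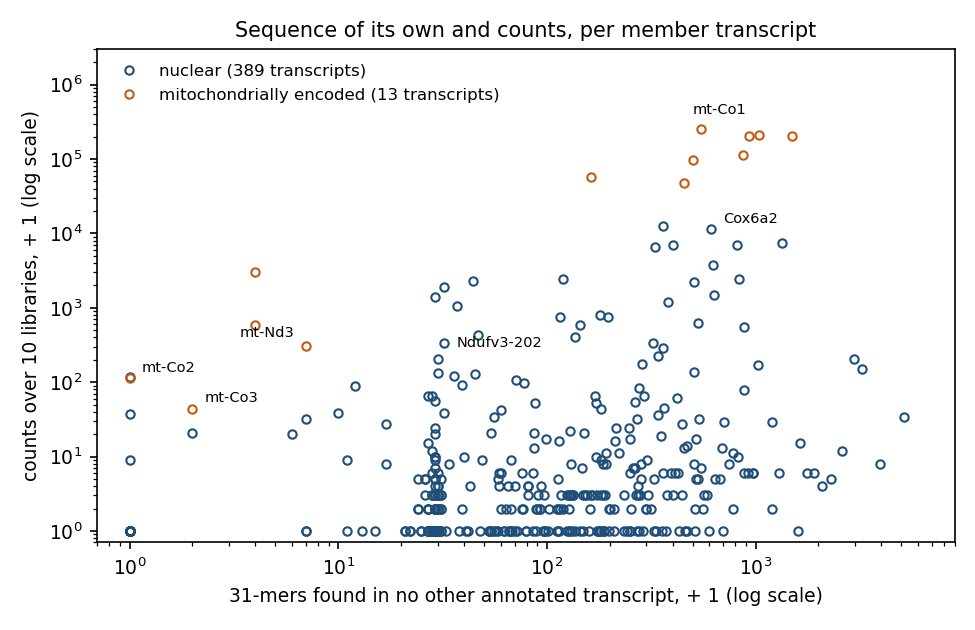
Counts over 10 libraries against the number of 31-mers found in no other annotated transcript, for the 402 member transcripts, with 1 added to each value and both axes logarithmic. Most mitochondrially encoded transcripts sit at the upper right, and mt-Co2, with no 31-mer of its own, and mt-Co3, with 1, sit at the lower left.

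Libraries held 726075 to 961237 counts, of which 105949 to 176464 fell on members and 7096 to 9298 on nuclear members. The muscle labels were borne out by fiber markers: 8 of 8 slow-fiber genes were higher in soleus (summed 7255 to 9563 CPM against 4.63 to 18.6), and 8 of 10 fast-fiber genes were higher in TA (75158 to 103776 CPM against 12439 to 18669), while Myh2, a fast oxidative myosin, was higher in soleus. Of other cell types, 3 of 3 tested endothelial and 2 of 3 tested smooth muscle and pericyte markers were higher in TA, and 2 of 2 adipocyte and 1 of 4 tenocyte markers were higher in soleus. Of 3 tested brown adipocyte markers 1 was higher in soleus, Cidea, which is also among the adipocyte markers. Of 2 tested macrophage, 5 erythroid and 1 Schwann cell marker 0 passed by edgeR or DESeq2, and 0 were below an unadjusted p of 0.05. The part of these cells in the results was not tested. In bulk muscle, fewer cells of a type and less RNA per cell cannot be told apart.

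Few respiratory chain subunits passed the test between the muscles. Of the 60 tested members 4 were higher in soleus and 2 in TA (10 libraries, edgeR quasi-likelihood test with sex as a covariate, adjusted p under 0.05), against 11% of all 5115 tested genes in each direction and 22% in either. At an unadjusted p under 0.05 it was 15 of 60, against 33.7%, and the DESeq2 Wald test called 7. The median log2 fold change of soleus over TA was -0.02 for members and 0.01 for all genes, with 30 members above 0 and 30 below. Members ranged from -0.71 to 0.78, and 47 of 60 lay within 0.5 of 0, as did 3046 of all 5115 genes. Without soleus female 2, 3 members were higher in soleus (Ndufb3, Ndufb5 and Cox8a) and 3 in TA (mt-Nd1, mt-Nd2 and mt-Atp8). With a block for the pairs 3 were called in each direction, against 23.6% of all genes in either. By genome the median was 0.05 in nuclear and -0.26 in mitochondrially encoded members.

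**Figure D3:**
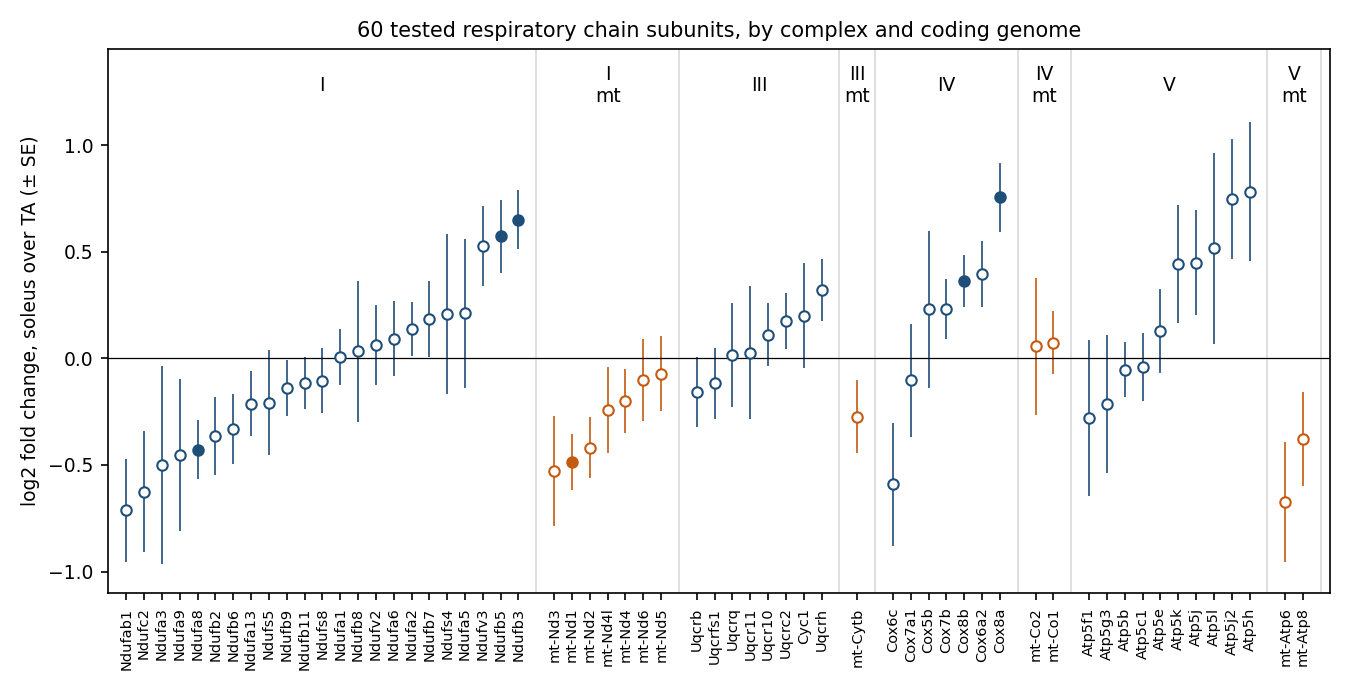
Log2 fold change of soleus over TA with its standard error for the 60 tested members, by complex (I, III, IV, V) and, within it, nuclear (blue) and mitochondrially encoded (orange, mt) genes. Filled points passed an adjusted p of 0.05: Ndufb3, Ndufb5, Cox8a and Cox8b above 0, and Ndufa8 and mt-Nd1 below it.

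Complex I takes electrons from NADH. Of its 37 nuclear members 23 were tested, with 2 higher in soleus, 1 in TA and a median of -0.10. Ndufb3, an accessory subunit of the membrane arm (chromosome 1, 58586384 to 58595964), had 212, 213 and 232 CPM in male soleus and 229 and 196 in female soleus, against 178, 122 and 131 in male TA and 130 and 129 in female TA. All soleus libraries lay above all TA libraries, as in 7.29% of the 5115 tested genes, and Atp5h was the other member of which this held. No member had all TA libraries above all soleus libraries, as 7.76% of all genes did. Ndufb3 had a log2 fold change of 0.65 (SE 0.14, edgeR adjusted p = 0.00537).

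Ndufb5, another subunit of the membrane arm (chromosome 3), had 65.5, 66.9 and 61.5 CPM in male soleus and 63.3 and 50.2 in female soleus, against 39.5, 41.7 and 43.9 in male TA and 51.2 and 30.2 in female TA. Soleus was higher in 5 of 5 pairs, and the groups overlapped through the female libraries. The share of all genes with 5 of 5 pairs in 1 direction was not counted, here or for the members below. The log2 fold change of Ndufb5 was 0.57 (SE 0.17, edgeR adjusted p = 0.0299). It passed in 2 of 10 fits that each left out a library, those without TA female 1 or soleus female 2.

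Ndufa8, a subunit exposed to the intermembrane space (chromosome 2), was higher in TA. It had 295, 222 and 272 CPM in male soleus and 239.9 and 188 in female soleus, against 385, 352 and 355 in male TA and 313 and 239 in female TA. TA was higher in 5 of 5 pairs with groups that overlapped. The log2 fold change of -0.43 (SE 0.14, edgeR adjusted p = 0.0450) passed in 2 of 10 fits that each left out a library, those without soleus female 1 or TA female 2.

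Ndufab1, the mitochondrial acyl carrier protein that is also part of complex I, had the lowest nuclear fold change at -0.71 (SE 0.24, edgeR adjusted p = 0.0527), from 19.5 ± 2.23 CPM in soleus and 32.2 ± 9.37 in TA (SD, n = 5 per muscle). Its transcript Ndufab1-201 passed in the fit of transcripts, at -0.76 (edgeR adjusted p = 0.0483). That call was lost in 9 of 10 fits that left out a library, and with DESeq2 size factors or no filter on low counts (adjusted p over these fits 0.00937 to 0.140). Ndufa13, the nuclear complex I member with the highest mean CPM, had 763 ± 121 CPM in soleus and 902 ± 226 in TA and did not pass (log2 fold change -0.21).

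Complex III passes electrons from ubiquinol to cytochrome c. Of its 9 nuclear members 8 were tested and 0 passed by edgeR or DESeq2, with 1 below an unadjusted p of 0.05, a median of 0.07 and a range of -0.16 to 0.32. At the ends of this range stood Uqcrb, a small structural subunit, and Uqcrh, the hinge protein that touches cytochrome c1. Uqcrfs1, the Rieske iron-sulfur protein, had 852 ± 176 CPM in soleus and 922 ± 153 in TA (SD, n = 5 per muscle). Its log2 fold change was -0.12 (SE 0.17).

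Complex IV, cytochrome c oxidase, reduces oxygen to water. Of its 20 nuclear members 7 were tested, and 2, both forms of subunit 8, were higher in soleus. Cox8a, the widely expressed form (chromosome 19, 7215153 to 7217616), had 111, 87.0 and 98.3 CPM in male soleus and 89.6 and 57.1 in female soleus, against 54.1, 60.2 and 53.2 in male TA and 51.2 and 42.2 in female TA. Soleus was higher in 5 of 5 pairs, and the groups overlapped only because soleus female 2 lay below TA male 2. Its log2 fold change was 0.75 (SE 0.16, edgeR adjusted p = 0.00527).

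Cox8b, the form typical of heart and skeletal muscle (chromosome 7, 140898945 to 140900446), had 971, 919 and 1007 CPM in male soleus and 718 and 771 in female soleus, against 757, 844 and 845 in male TA and 487 and 531 in female TA. Soleus was higher in 5 of 5 pairs, and within each sex the groups did not overlap, though pooled they did. The share of all genes of which either held was not counted. The log2 fold change of Cox8b was 0.36 (SE 0.12, edgeR adjusted p = 0.0492). The call was lost with a block for the pairs (edgeR adjusted p = 0.0564) and in each of 10 fits that left out a library, at values from 0.32 to 0.40.

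**Figure D4:**
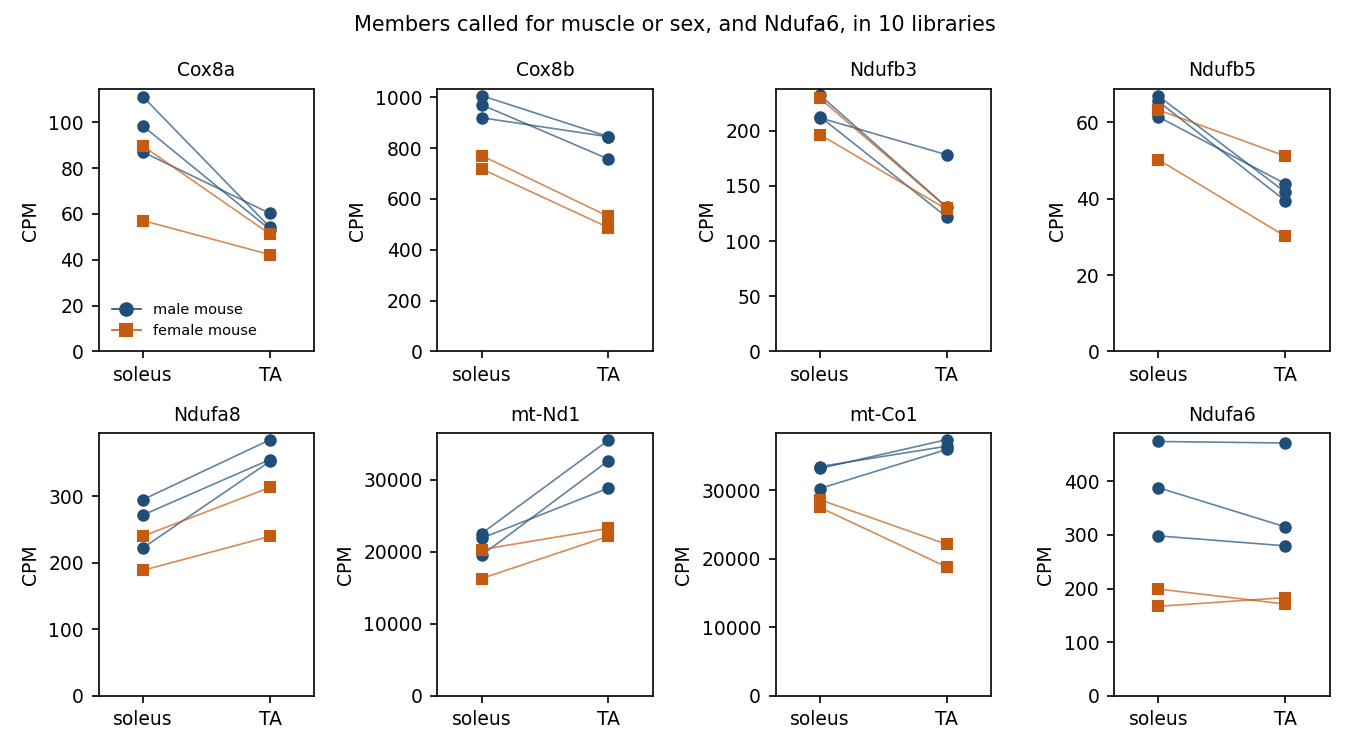
CPM in soleus and TA for the 6 members that passed between muscles, for mt-Co1, which passed between sexes in TA, and for Ndufa6, with lines joining libraries of the same sex and number. In Cox8a, Cox8b, Ndufb3 and Ndufb5 all 5 lines fall from soleus to TA, and in Ndufa8 and mt-Nd1 all 5 rise. In mt-Co1 they rise in 3 male pairs and fall in 2 female pairs.

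Cox6a2, the muscle form of subunit 6a and the nuclear complex IV member with the highest mean CPM, had 1536 ± 233 CPM in soleus and 1187 ± 370 in TA (SD, n = 5 per muscle). Its log2 fold change of 0.40 (SE 0.15, edgeR adjusted p = 0.0859) did not pass. Cox6c had the lowest value of the complex, -0.59 (SE 0.29, edgeR adjusted p = 0.173).

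The balance within pairs of related subunits was compared as a share of the pair's counts per library, with 8 shares tested and none passing (2-sided exact permutation, smallest adjusted p = 0.349). Cox8a made up 9.16% ± 1.61 of Cox8a and Cox8b counts in soleus and 7.23% ± 1.37 in TA (SD, n = 5 per muscle). Cox6a1 made up 0.0445% and 0.180% of Cox6a1 and Cox6a2 counts, from 12 counts of Cox6a1 in all. Cox7a1, the muscle form of subunit 7a, made up 83.9% ± 10.1 and 88.6% ± 7.50 of the counts it shared with Cox7a2.

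Cox7b made up 99.6% and 100% of the counts it shared with Cox7b2, and Ndufa4 made up 48.6% ± 35.5 and 43.1% ± 28.4 of the counts it shared with Ndufa4l2, from 2 to 7 counts per library. Of the 3 genes for the c-ring subunit of ATP synthase, Atp5g3 held the largest share in both muscles, with 61.9% ± 10.4 in soleus and 6.12 percentage points more in TA. Atp5g1 held 26.6% and 20.9%, and Atp5g2 held 11.5% and 11.1%, from 10 to 29 counts of the 3 genes per library. In the most counted transcript of each, 693 of 693 31-mers of Atp5g3, 185 of 566 of Atp5g1 and 86 of 701 of Atp5g2 are found in no other gene. The order of these shares was not taken as an order of expression. Cox4i1 and Cox6b1 held all counts of their pairs in each library with a count, and were not tested.

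Cox7a1 has 2 annotated transcripts, which differ in the first exon and in the end of the last exon. They were singled out here after the values were seen, which the p below does not allow for. The gene had 8 to 21 counts per library. The transcript Cox7a1-201 made up 66.7%, 87.5% and 58.3% of the gene's counts in male soleus and 76.5% and 90% in female soleus. In TA it made up 28.6%, 23.8% and 53.3% in males and 71.4% and 70.6% in females. The groups overlapped, and the means of 75.8% ± 13.5 and 49.5% ± 22.6 (SD, n = 5 per muscle) were compared with a 2-sided exact permutation p = 0.0556. Neither transcript passed in the transcript fit, where 5 of the 60 tested member transcripts were higher in soleus and 3 in TA, against 12.6% and 11.7% of all 5089 tested.

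ATP synthase had 18 nuclear members, of which 10 were tested and 0 passed by edgeR or DESeq2, with 2 below an unadjusted p of 0.05 and a median of 0.29. Atp5h, a subunit of the peripheral stalk, had the highest fold change of all tested members, 0.78 (SE 0.32, edgeR adjusted p = 0.109). It had 12.1 ± 2.46 CPM in soleus and 6.89 ± 2.24 in TA (SD, n = 5 per muscle), with no overlap between groups, on 80 counts in all. Atp5j2, a small membrane subunit, had 0.75 (SE 0.28, edgeR adjusted p = 0.0788). Atp5b, the catalytic beta subunit and the nuclear member with the highest mean CPM, had 1471 ± 163 CPM in soleus and 1525 ± 94.4 in TA, a log2 fold change of -0.05 (SE 0.13). Atp5f1, another subunit of the peripheral stalk, had the lowest value, -0.28 (SE 0.37).

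Summed over members, complex IV had the largest difference among the nuclear sums, with 2652 ± 358 CPM in soleus and 2076 ± 536 in TA (SD, n = 5 per muscle), of which Cox6a2 gave 57.6%. The log2 ratio of the means was 0.35 for complex IV, -0.08 for complex I, -0.03 for complex III and -0.03 for complex V. Over all nuclear members the sum was 9880 ± 1021 CPM in soleus and 9607 ± 1377 in TA. Scaled instead to the counts outside Gm20594 and Cep295, a pair of genes that took more of the soleus libraries, the log2 ratio was 0.16 for all nuclear members and -0.11, in place of -0.24, for the mitochondrially encoded ones. These sums were given no test, and each leans on its most counted gene: Atp5b gave 77.5% in complex V and Uqcrfs1 61.7% in complex III.

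The mitochondrially encoded members made up 10.3% to 17.8% of each library. Of the 12 tested, edgeR called 1 in the direction of TA and none in that of soleus, and 10 had a negative fold change. mt-Nd1, a core subunit of the proton-pumping arm of complex I, had 22499.6, 21849 and 19478 CPM in male soleus and 20279 and 16259.6 in female soleus, against 35459, 28809.7 and 32618 in male TA and 23216 and 22133 in female TA. TA was higher in 5 of 5 pairs, and the groups overlapped only through soleus male 1 and TA female 2. The log2 fold change was -0.49 (SE 0.13, edgeR adjusted p = 0.0199). The call was lost without soleus male 1, soleus male 3, TA male 1 or TA male 3, at values from -0.49 to -0.42.

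The other complex I subunits had -0.42 for mt-Nd2 (SE 0.14, edgeR adjusted p = 0.0542), -0.53 for mt-Nd3 (SE 0.26), -0.24 for mt-Nd4l, -0.20 for mt-Nd4, -0.10 for mt-Nd6 and -0.07 for mt-Nd5. mt-Cytb, the cytochrome b of complex III, had -0.27 (SE 0.17). In complex IV, mt-Co1, the catalytic subunit, had 0.07 (SE 0.15) and mt-Co2 had 0.06 (SE 0.32). In ATP synthase, mt-Atp6, the proton channel subunit, had -0.67 (SE 0.28, edgeR adjusted p = 0.109), and mt-Atp8 had -0.38 (SE 0.22). With a block for the pairs mt-Atp6 passed, at -0.75 (edgeR adjusted p = 0.0197).

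Counts, and the part of the sequence found in no other transcript, differ widely among these messages. All 927 31-mers of mt-Nd1 are found in no other annotated transcript, and it had 207534 counts. In mt-Co1 547 of 1515 are its own, and it had 257014 counts. mt-Co2 has none of 654, shares 651 with the pseudogene Gm28661 and had 112 counts, and mt-Co3 has 1 of 754, shares 753 with Gm28437 and had 43 counts. mt-Atp6, mt-Nd4l and mt-Nd3 have 3, 3 and 6, and had 2995, 587 and 308 counts. In these 5 genes little or none of the message is its own. How their reads were counted is not known here, and their values are uncertain.

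Values of the mitochondrially encoded members were lower in female than in male TA. mt-Co1 had 33440.1, 33165 and 30236 CPM in male soleus and 28599 and 27468 in female soleus, against 36412, 37370.4 and 35942 in male TA and 22081 and 18768 in female TA. The female TA libraries were the lowest of all 10 and the male TA libraries the highest. mt-Co1 fell by 0.84 on the log2 scale from male to female TA (SE 0.15, edgeR adjusted p = 0.0355), the 1 member of 60 to pass, in a comparison where 0.645% of all genes passed and 0.274% were lower in females. It passed in 2 of 10 fits that each left out a library, those without a female soleus library. In soleus 0 of 60 members passed by edgeR, against 0.547% of all genes, and 5 were below an unadjusted p of 0.05, against 16.5%. The DESeq2 Wald test called 1 member in soleus, Ndufa6, against 2.41% of all genes, and 9 in TA, against 1.54%.

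All 12 tested mitochondrially encoded members were lower in female TA, with log2 values from -1.93 for mt-Co2 to -0.51 for mt-Nd1 and a median of -0.80. Each was below an unadjusted p of 0.05 by edgeR, as were 5.38% of all genes in that direction, and these genes are cut from long shared precursors, so they are not independent. In soleus the median was -0.14, and 8 of 12 were negative. The difference of the muscle effect between the sexes was positive in 12 of 12 (median 0.75), but 0 of 60 members passed by edgeR, as did 0% of all genes, or by DESeq2, where 0.219% of the genes given an adjusted p passed. Of the 12, 7 were below an unadjusted p of 0.05, against 3.75% of all genes in that direction. The smallest adjusted p by edgeR was 0.501, shared by mt-Atp8 (1.17, SE 0.29), mt-Nd4l (1.07, SE 0.28) and mt-Cytb (0.86, SE 0.22).

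Summed, the 13 messages had 142404, 136882 and 121138 CPM in male soleus and 130280 and 113553 in female soleus, against 188501, 179257 and 174696 in male TA and 117330 and 103595 in female TA. The log2 ratio of soleus over TA within pairs was -0.40, -0.39 and -0.53 in males, and 0.15 and 0.13 in females. Scaled by the raw library total, the value of female 2 turned to -0.15 and that of female 1 was 0.08, so the opposed direction in both females depends on the scaling. Among single genes, 4 of 12 mitochondrially encoded members (mt-Nd4, mt-Nd4l, mt-Cytb and mt-Co1) and 4 of 48 nuclear ones (Ndufa3, Ndufb9, Cox7a1 and Atp5c1) were higher in TA in 3 male pairs and in soleus in 2 female pairs, against 2.37% of all genes. None had the opposite pattern, against 2.76%. The nuclear sum in TA also differed, with 7587 and 8750.4 CPM in females and 10485 to 10629 in males. In TA 37 of 48 tested nuclear members were lower in females (median -0.24), 8 of them and 1 higher at an unadjusted p under 0.05 by edgeR.

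**Figure D5:**
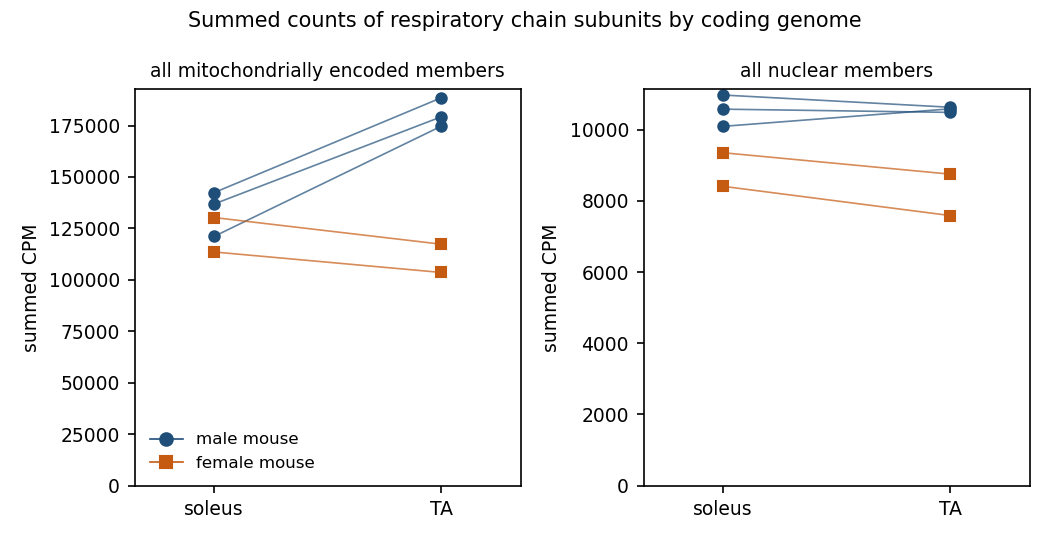
Summed CPM of the 13 mitochondrially encoded (left) and 84 nuclear (right) members in soleus and TA, with lines joining libraries of the same sex and number. The mitochondrially encoded sum is higher in TA in 3 male pairs (TA at 174696 to 188501 CPM) and lower in TA in 2 female pairs (TA at 103595 and 117330 CPM).

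Markers of red blood cells moved with sex. The summed level of 5 erythroid genes was 6239 to 21705 CPM in male TA and 1562 to 4454 in female TA, and 14193 to 36755 against 259.6 and 2522 in soleus. Endothelial markers summed to 564 to 879 CPM in male TA and 341 and 614 in female TA, which overlapped. Smooth muscle and pericyte markers summed to 907 to 1164 CPM in male TA and 585 and 774 in female TA, without overlap. Higher in female TA without overlap were tenocyte markers (188 and 293 CPM against 50.9 to 103) and Schwann cell markers (18.6 and 22.1 against 10.1 to 15.1). Smooth muscle and pericyte markers were also lower in female soleus without overlap (401 and 488 CPM against 525 to 641). So were macrophage markers (180 and 398 CPM against 461 to 779). Brown adipocyte markers were higher in female soleus without overlap (93.6 and 111 CPM against 45.5 to 62.0). Among them Ppargc1a had means of 74.8 CPM in female and 28.2 in male soleus, and Ucp1 had no listed count. The part of these cells in the sex differences was not tested. With 3 male and 2 female pairs, sex and any other difference between those pairs cannot be told apart.

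Ndufa6, a subunit of the matrix arm of complex I (chromosome 15, 82350140 to 82354322), separated the sexes by level in both muscles, without passing the main edgeR test. It had 298, 388 and 474 CPM in male soleus and 280, 315 and 472 in male TA, against 199 and 167 in female soleus and 171 and 183 in female TA. The male 3 libraries were highest in both muscles, every female library lay below every male library, and soleus was the higher muscle in 4 of 5 pairs. The gene was picked after its values were seen, and the share of all genes that separate the sexes in this way was not counted. The log2 value of female over male was -1.08 in soleus (SE 0.27, edgeR adjusted p = 0.0852) and did not pass. In soleus it did pass by the DESeq2 Wald test and without a filter on low counts. It did not with DESeq2 size factors or in most fits that left out a library. In TA the means were 355 CPM in males and 177 in females (edgeR adjusted p = 0.146), and the value of soleus over TA was 0.09 (SE 0.18). Ndufv3 was lower in female TA by a log2 value of -1.12 (SE 0.23, edgeR adjusted p = 0.0539) as a gene, with 37.7 CPM in females and 81.8 in males. This passed with DESeq2 size factors, by the DESeq2 Wald test and without a filter, but not in most fits that left out a library.

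Genes that act beside the subunits were read from lists of the same pathway. Of complex II, which feeds electrons from succinate, 0 of 4 tested genes passed by edgeR or DESeq2, and 0 were below an unadjusted p of 0.05. Of 15 genes for mobile carriers and coenzyme Q synthesis 8 were tested and 1 passed. Coq8a, an atypical kinase needed for coenzyme Q synthesis, had 74.8, 87.0 and 65.1 CPM in male soleus and 52.7 and 53.7 in female soleus, against 27.1, 11.6 and 18.5 in male TA and 26.8 and 19.1 in female TA. The groups did not overlap. Its log2 fold change was 1.67 (SE 0.24, edgeR adjusted p = 0.000306), larger than that of any tested subunit gene.

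Of 25 assembly factors of complex IV 12 were tested and 1 passed: Cox11, which delivers copper to the enzyme, was higher in TA (-1.37, SE 0.43, edgeR adjusted p = 0.0385), with 5.63 ± 2.07 CPM in soleus and 15.1 ± 8.11 in TA (SD, n = 5 per muscle). Of 5 genes for ATP synthase assembly and regulation 2 were tested, and Atpaf2, a chaperone of the alpha subunit, was higher in TA (-1.09, SE 0.36, edgeR adjusted p = 0.0451), though not by DESeq2. None of the tested genes passed by edgeR or DESeq2 for complex I assembly (7 of 17 tested), complex III assembly (3 of 6), the adenine nucleotide translocase and VDAC list (6 of 7), mitochondrial transcription and replication (6 of 13) or transcriptional regulators of respiratory genes (4 of 10). Below an unadjusted p of 0.05 were 2, 1, 0, 0 and 1 of them in that order.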

How the data were processed

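The values deposited by the authors are raw counts of Ensembl transcripts in 10 libraries. Every listed count is at least 1, and whether a missing row stands for a count of 0 is not known here; it was entered as 0. Per the labels' protocols, libraries came from 10 ng of total RNA and a Takara SMART-Seq Stranded kit. The submitters' processing notes name bcl2fastq, Trimmomatic 0.32, FastQC and the build GRCm38.p4, and name no aligner or counter, so both are not given in the sources used here. Of 40414 transcripts 40359 were matched to GENCODE M21 by identifier and summed to genes. The 55 unmatched ones were left out of totals.

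Counts were tested with edgeR 4.0.16 in R 4.3.3 (TMM, filterByExpr by 4 groups of muscle and sex, quasi-likelihood F test, Benjamini-Hochberg adjusted p under 0.05 over all 5115 tested genes or 5089 transcripts), with sex as a covariate for muscle and 1 mean per group for sex and interaction. The test was checked on simulated data. Shares were compared with exact permutation tests. Tables used pandas 2.3.3 in Python 3.11.15.

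Replicate numbers were tested as pairs, after means of muscle and sex were removed. Libraries of 1 number correlated across genes at 0.183 to 0.239 in males, and other male pairs at -0.0705 or less. With group means removed, positive values for pairs of 1 number push the other male pairs negative, so these are not a separate result. In females libraries of 1 number correlated at 0.285. With 2 female libraries per muscle the other female pairs must take the same value with the opposite sign, -0.285. By the rule of a correlation over 0.1 in every pair, a block fit was allowed as an alternative. Others were DESeq2 1.42.0, other scalings, no filter, protein-coding transcripts only and leaving out each library. Members, lists and tests were chosen with earlier results of these data known. Genes named were all members that passed, all mitochondrially encoded ones, all paralogues, and per complex those with the highest and lowest fold change and the highest mean CPM. Ndufa6, Ndufab1-201, Cox7a1 transcripts and Atp5j2 were named after their values were seen.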

Additional observations from a re-analysis of the deposited data

Results flagged for a closer look

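A library far from the others of its muscle, by Dixon's criterion for 5 samples, was found in 5 of 44 sets of values examined, where chance gives about 1 in 20. Soleus male 3 was lowest for mt-Nd3, with 18.4 CPM, and soleus female 2 was lowest for mt-Atp6, with 102 CPM. TA male 1 was highest for Ndufb3, with 178 CPM, and still lay below every soleus library. TA female 1 had the highest TA share of Ndufv3-201, 36.8%, and the lowest TA share of Ndufv3-202, 60.5%, which are values of 1 gene in 1 library and not separate events.

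The summed mitochondrially encoded members had opposite directions in the sexes. The mean log2 ratio of soleus over TA was -0.44 in 3 male pairs and 0.14 in 2 female pairs, with every pair of a sex on 1 side under this scaling. Scaled by the raw library total, the females were at 0.08 and -0.15 and so not on 1 side. The difference of the sums was not tested.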

How the results depend on the processing

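No difference that passed a test changed sign under the alternatives run. Differences that had no test or did not pass one did. The nuclear sum of complex III (log2 -0.03) ran from -0.11 to 0.06 with a library left out, that of complex V (-0.03) from -0.07 to 0.01 and that of all nuclear members (0.04) from -0.03 to 0.09. As a share of counts outside Gm20594 and Cep295, complexes I, III and V turned to 0.04, 0.09 and 0.08. The share differences of Ndufa4 (5.48 points) and Atp5g2 (0.43) ran from -7.38 to 17.6 and from -1.45 to 3.31 with a library left out, and that of Atp5g2 was -0.049 with protein-coding transcripts only. Ndufb3 and Cox8a stayed below an adjusted p of 0.05 in all 7 other settings and all 10 fits that left out a library. The count of members higher in soleus (4) was 2 without a filter and 2 to 3 with a library left out. The count higher in TA (2) was 1 with DESeq2 size factors or with library sizes without mitochondrially encoded genes and Gm20594. It was 4 with upper-quartile scaling and 0 to 5 with a library left out. Between the sexes in soleus the count (0) was 1 by the DESeq2 Wald test and without a filter, and 0 to 3 with a library left out, the 3 coming without soleus female 1. In TA it (1) was 3 with DESeq2 size factors, 9 by the DESeq2 Wald test, 5 without a filter, and 0 to 10 with a library left out: 8 without soleus female 1, 10 without soleus female 2 and 0 otherwise. For the interaction the count was 0 to 1, the 1 being mt-Atp8 without soleus female 1. The causes were not tested.

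With the replicate block for pairs, the log2 fold change of Cox8b was 0.37 and no longer called, and that of mt-Atp6 was -0.75 and called. The Ndufv3 share differences of 49.4 and -50.1 percentage points kept their size, and their sign-flip p could not pass by its design. The block changed no other call of a member between muscles. With a library left out, the fold change of Ndufv3-202 ran from -1.09 to -0.74, and the shares from 47.1 to 54.0 and from -55.1 to -47.7 points. All genes called ran from 893 to 1209. The 30 members with 1 to 59 counts did not pass the filter and were not tested, and the part of depth in this was not tested.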
